A study of Mus musculus with 20 samples.

Results

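Type I interferon effector genes are the genes that cells switch on after sensing interferon alpha or beta and whose products act against viruses and other intracellular threats. The 39 genes described here were taken by symbol from a fixed list, and each matched 1 row of the deposited table of 23402 rows. They fall into the IFIT, OAS, MX, IFITM, PARP, ubiquitin-like, TRIM and IFI27 subfamilies and 13 further genes. The tissue was tumour grown under the skin of mice from MC38, an established mouse colon carcinoma line, and RNA was measured by sequencing of total RNA. Vehicle alone was given to the mice behind 10 libraries (Control), and ATBx was given around the tumour for the other 10 (P.T.ATBx). The labels do not spell out ATBx or give its dose or schedule, nor the strain, sex or age of the mice. All 20 libraries came from tumours of the same line, so the comparison concerns a single tumour model. The labels do not tell whether libraries came from separate animals, and p-values therefore measure the spread between these libraries, which may be partly technical. The study's title links the microbes in tumours to interferon signalling, so the comparison asks how the interferon response of the tumour differed after local ATBx.

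As background, interferon alpha and beta bind a shared receptor made of Ifnar1 and Ifnar2, and the kinases Jak1 and Tyk2 then act on transcription factors of the STAT family. Stat2 and Irf9 are parts of the complex that binds the interferon-stimulated response element, a short DNA motif near the start of its target genes. Many of the same genes also respond to interferon gamma, which acts through its own receptor. In tumours, myeloid cells, lymphocytes, stromal cells and the cancer cells themselves can all carry this programme.

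The labels call the material cancer cells, yet leukocyte RNA was plentiful in every library. The summed FPKM (fragments per kilobase of gene scaled to the mapped fragments of the library) of 5 leukocyte markers ran from 399 to 694 in Control and from 360 to 691 in P.T.ATBx. The 6 epithelial keratin and adhesion markers summed to 4.21 to 179 in Control and 12.2 to 53.0 in P.T.ATBx, and Krt20 stayed at or under 0.319 FPKM. Of the marker genes found in the table, 0 were at 0 in all 20 libraries. Summed FPKM of 5 adipocyte markers ran from 58.7 to 2786 in Control, with Control 3 highest and Control 1 next at 1117, and from 87.4 to 694 in P.T.ATBx. Relative sequencing depth, read from the size of single-read steps in low genes, ran from 0.818 to 1.30 of the median library. In bulk tissue, fewer cells of a type and less RNA per cell cannot be told apart.

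Across the 39 members, P.T.ATBx tumours had slightly lower mean levels almost throughout, and 0 members passed the test between the groups. The difference, on the scale of log2(FPKM + 1) and as P.T.ATBx minus Control, was negative for 38 of 39 members, and Isg20 was the exception. The median over members was −0.16, against 0.00 over all 12788 genes tested. Of all tested genes, 48.5% had a negative difference. The members varied together from library to library and were chosen with earlier results known. The count and the median are therefore descriptions, and the members are not separate pieces of evidence. No member reached an adjusted p under 0.05 (limma, Benjamini-Hochberg over all tested genes, two-sided), where 0.845% of all genes were called, 0.383% lower and 0.461% higher. At an unadjusted p under 0.05, 6 members were lower and 0 higher, against 6.08% and 7.51% of all genes. These 6 were Ifi27l1, Ifitm3, Cmpk2, Trim25, Bst2 and Zbp1, and they were also the 6 whose 95% intervals for the difference left out 0. The largest differences were −0.42 for Zbp1 and −0.39 for Ifi27l2a, and the adjusted p of the members ran from 0.0649 to 0.905 (limma).

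**Figure D1:**
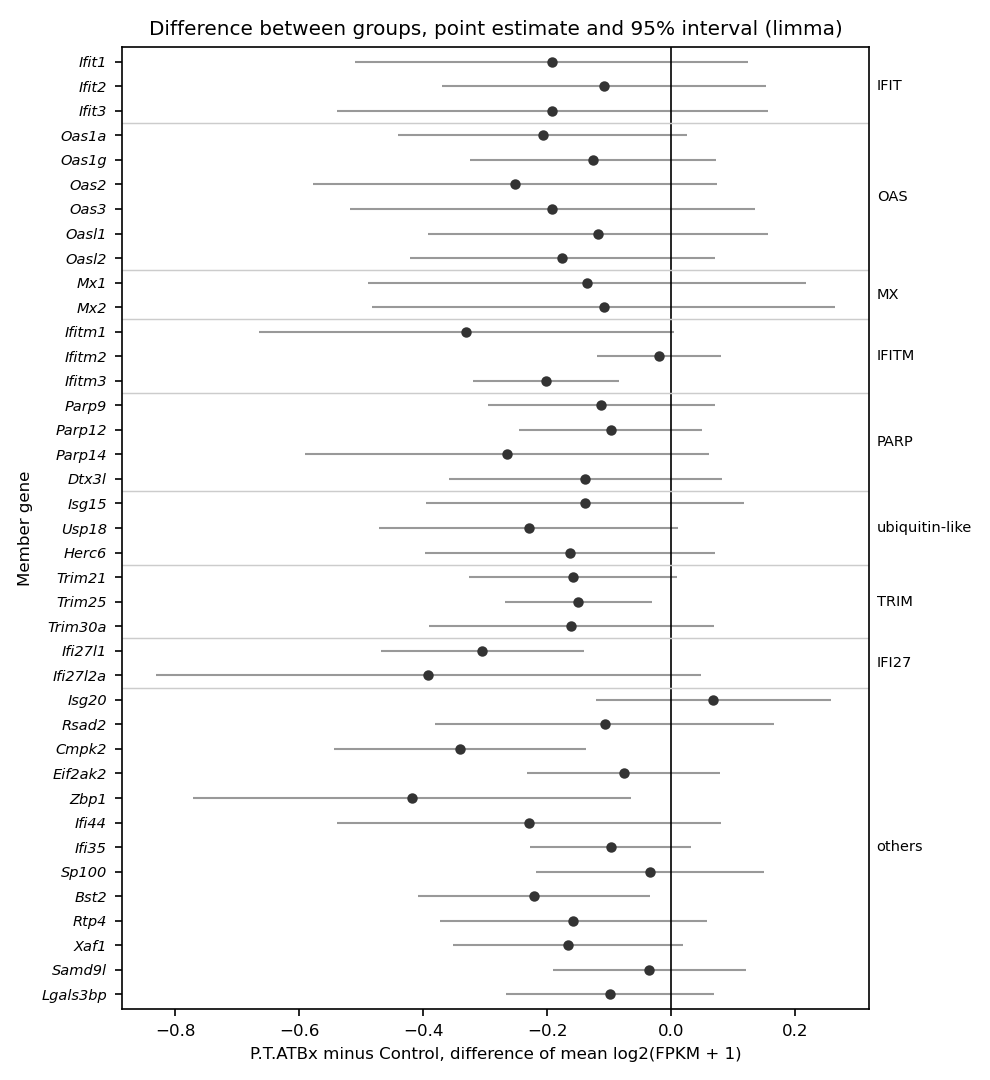
Difference of mean log2(FPKM + 1) between P.T.ATBx and Control for each member (x axis; dots are estimates from limma, bars 95% intervals, n = 10 libraries per group), grouped by subfamily (y axis). All dots but that of Isg20 lie left of 0, and the intervals of Ifi27l1, Ifitm3, Cmpk2, Trim25, Bst2 and Zbp1 leave out 0.

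The groups overlapped in all 39 members, so 0 had every P.T.ATBx library beyond every Control library, a pattern that 0.0626% of all genes showed in the lower and 0.0704% in the higher direction. In 30 of 39 members, at least 7 of the 10 P.T.ATBx values were under the median of Control, against 29.7% of all genes. For Ifitm1, Ifitm3, Parp14 and Ifi27l1 all 10 did. Isg15, Isg20, Ifitm2, Sp100 and Oasl1 had 5 or fewer below it. The single highest library was a Control library in 38 of 39 members, and the matching share of all genes was not computed. A few libraries recurred: within Control, the highest was Control 5 for 21 members and Control 10 for 8.

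The IFIT proteins bind viral RNA through tandem helical repeats and block its translation. Ifit3 was the most abundant of the 3. Its FPKM was lowest at 42.0, median 73.0 and highest at 110.05 in Control, against 43.2, 67.8 and 90.6 in P.T.ATBx. Control libraries thus held both the lowest and the highest value, with Control 3 at the bottom and Control 7 at the top. The difference was −0.19 (SE 0.17, p = 0.263, adjusted p = 0.669, limma). Ifit1, which recognises RNA lacking the host's cap methylation, had 49.3 ± 13.6 FPKM in Control against 42.0 ± 7.63 in P.T.ATBx (n = 10 each, SD) and a difference of −0.19 (SE 0.15, adjusted p = 0.632, limma). Ifit2 had −0.11 (adjusted p = 0.763, limma). The 3 genes lie together on chromosome 19 (GRCm38), Ifit2 at 34550550 to 34576534, Ifit3 at 34583119 to 34588982 and Ifit1 at 34640889 to 34650009. Of the 50-base windows of the Ifit3 transcript, 51.2% also occur in its near copy Ifit3b, so the split of reads between those genes is uncertain.

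Promoter sequences were available for 29 of the 39 members in a RefSeq table (GRCm38.p6), each spanning 250 bases before to 50 after the annotated start. The core of the interferon-stimulated response element was searched as GAAA, any 2 bases and GAAA again, and on the other strand as TTTC, any 2 bases and TTTC, overlapping matches included. It was present for 13 of the 29 members (44.8%) and for 3.99% of the 27025 genes in that table. Such a match describes letters in this window and not a bound site. The promoters of Isg15 (chr4:156200769-156201068, minus strand), Ifit1 (chr19:34640639-34640938, plus strand) and Ifit3 (chr19:34583279-34583578, plus strand) are shown because these genes are the usual readouts of the pathway and hold the core in several copies. Each reads 5′ to 3′ along its gene, with matches to the core in capitals.
Isg15: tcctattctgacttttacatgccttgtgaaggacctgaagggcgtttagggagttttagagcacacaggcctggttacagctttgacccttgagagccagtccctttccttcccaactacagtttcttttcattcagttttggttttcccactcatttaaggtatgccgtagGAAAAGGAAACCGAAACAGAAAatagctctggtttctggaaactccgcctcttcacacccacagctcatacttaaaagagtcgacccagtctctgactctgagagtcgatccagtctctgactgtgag
Ifit1: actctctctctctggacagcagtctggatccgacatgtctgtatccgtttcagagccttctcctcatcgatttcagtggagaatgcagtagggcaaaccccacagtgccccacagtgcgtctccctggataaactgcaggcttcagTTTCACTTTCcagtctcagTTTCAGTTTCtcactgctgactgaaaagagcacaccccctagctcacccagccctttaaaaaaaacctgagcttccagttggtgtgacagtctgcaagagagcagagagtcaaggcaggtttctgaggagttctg
Ifit3: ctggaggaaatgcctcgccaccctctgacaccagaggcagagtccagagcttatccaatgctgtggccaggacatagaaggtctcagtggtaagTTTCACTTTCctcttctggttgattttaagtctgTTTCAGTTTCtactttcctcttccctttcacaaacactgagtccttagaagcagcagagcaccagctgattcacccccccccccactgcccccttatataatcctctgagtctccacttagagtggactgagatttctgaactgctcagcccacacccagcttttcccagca

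Positions are counted to the first base of a match along the gene. In the Isg15 window 3 overlapping copies begin 78, 72 and 66 bases before the start. Ifit1 has copies at 104 and 85 bases before the start, and Ifit3 at 156 and 122. The core of the gamma-activated site, a motif of interferon gamma responses, was searched as TTC, any 3 bases and GAA, a motif that reads the same on both strands. It was present for 7 of the 29 members (24.1%) and for 9.55% of all genes in the table, and 4 members held both cores. Members with the response element core had a median difference of −0.16 (13 genes), members with an entry but no core −0.13 (16 genes), and members without an entry −0.24 (10 genes).

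Ubiquitin-like modification centres on Isg15, a small protein that is attached to other proteins, as ubiquitin is. Isg15 FPKM was lowest at 73.1, median 92.3 and highest at 147.8 in Control, against 70.1, 95.6 and 115.5 in P.T.ATBx. The P.T.ATBx median was thus the higher of the 2 although its mean was the lower, and 4 Control libraries lay above all P.T.ATBx libraries. The difference of −0.14 (SE 0.12, p = 0.274, adjusted p = 0.673, limma) was smaller than the spread within Control, an SD of 0.36 on the same scale, and was −0.08 without Control 5. Usp18, the protease that removes Isg15 and also dampens the interferon receptor, had 22.1 ± 4.02 FPKM in Control against 18.8 ± 3.91 in P.T.ATBx (n = 10 each, SD). Its difference was −0.23 (SE 0.12, p = 0.0610, adjusted p = 0.396, limma), with 8 P.T.ATBx values under the median of Control. Herc6, a ligase that attaches Isg15 in mice, had −0.16 (adjusted p = 0.574, limma). The activating and conjugating enzymes of the same cascade are no members, and their differences were −0.05 for Uba7 and −0.16 for Ube2l6.

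OAS proteins sense double-stranded RNA, and the active ones answer it by making short chains of adenylate. All 6 members had negative differences, from −0.25 for Oas2 to −0.12 for Oasl1. Oas1a had the smallest p of them. Its FPKM was lowest at 16.1, median 20.6 and highest at 28.3 in Control, against 10.9, 19.1 and 23.1 in P.T.ATBx. Here 2 P.T.ATBx libraries lay below every Control library and 4 Control libraries above every P.T.ATBx library. The difference was −0.21 (SE 0.11, p = 0.0789, adjusted p = 0.435, limma), and it was −0.13 without P.T.ATBx 2. Oasl2, a ubiquitin-like relative of the family, was the most abundant at 66.1 ± 13.8 FPKM in Control against 57.9 ± 9.57 in P.T.ATBx (n = 10 each, SD), with a difference of −0.18 (adjusted p = 0.563, limma). Oas2, Oas3 and Oas1g were the 3 members with a mean under 10 FPKM over all libraries.

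Oas1a and Oas1g share much of their sequence: 57.6% of the 50-base windows of the Oas1a transcript occur in Oas1g, and 54.1% of those of Oas1g in Oas1a. Their separate values, 20.1 and 4.75 FPKM over all libraries, therefore depend on how shared reads were assigned. The promoters are shown for the same reason: the match to the core lies at nearly the same place, 20 and 14 bases before the start of Oas1a (chr5:120907476-120907775, minus strand) and 18 and 12 before that of Oas1g (chr5:120887564-120887863, minus strand), again with the core in capitals.
Oas1a: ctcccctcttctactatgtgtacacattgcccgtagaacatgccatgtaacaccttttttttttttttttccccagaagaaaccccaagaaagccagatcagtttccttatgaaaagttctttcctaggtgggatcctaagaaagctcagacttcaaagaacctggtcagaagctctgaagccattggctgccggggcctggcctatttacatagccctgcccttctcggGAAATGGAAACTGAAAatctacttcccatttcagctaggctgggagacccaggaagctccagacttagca
Oas1g: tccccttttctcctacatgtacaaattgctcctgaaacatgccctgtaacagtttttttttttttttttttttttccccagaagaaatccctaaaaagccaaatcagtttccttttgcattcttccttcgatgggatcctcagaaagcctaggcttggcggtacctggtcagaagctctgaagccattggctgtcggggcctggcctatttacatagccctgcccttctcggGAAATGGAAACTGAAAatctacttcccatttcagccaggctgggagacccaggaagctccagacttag

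MX proteins are dynamin-like GTPases that trap viral nucleoproteins. Mx1 was lowest at 8.25, median 17.7 and highest at 26.5 FPKM in Control, against 10.2, 16.2 and 18.2 in P.T.ATBx. The 10 Control libraries enclosed the P.T.ATBx range on both sides, and 5 of them lay above its top. The difference was −0.14 (SE 0.17, p = 0.434, adjusted p = 0.783, limma). Mx2, its neighbour on chromosome 16, had −0.11 (adjusted p = 0.839, limma). The median of the 2 genes moved to −0.24 without Control 3 and to −0.05 without Control 7. Laboratory strains often carry a defective Mx1 allele, and RNA levels do not tell whether the protein is made.

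IFITM proteins sit in membranes and hinder the fusion of viruses with cells, and their genes cluster on chromosome 7. Ifitm3 had the highest mean of all members. Its FPKM was lowest at 376, median 467 and highest at 517.5 in Control, against 354, 400 and 458 in P.T.ATBx. All 10 P.T.ATBx values were under the median of Control, while Control 2 lay within the lower part of their range. The difference was −0.20 (SE 0.06, p = 0.00184, adjusted p = 0.0904, limma). Without Control 2 it was −0.23, with adjusted p = 0.026 (limma), and over all alternatives the adjusted p ran from 0.026 to 0.229. Ifitm2, nearly as abundant at 333 ± 25.9 and 328 ± 21.9 FPKM (n = 10 each, SD), had −0.02 (SE 0.05, 95% interval −0.12 to 0.08, adjusted p = 0.894, limma). Its direction changed to 0.0033 without Control 1 and to 0.0093 after quantile normalization, and 48.5% of its transcript windows occur in other annotated genes. Ifitm1 was far lower, at 13.3 ± 4.03 and 10.0 ± 1.84 FPKM, with a difference of −0.33 (SE 0.16, p = 0.0530, adjusted p = 0.377, limma). Whether Ifitm3 differed from Ifitm2 in its response was not tested.

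The Ifitm2 and Ifitm3 promoters are shown because these abundant genes of the same cluster had different values. Ifitm3 (chr7:141010695-141010994, minus strand) held the core at 2 and 19 bases after the start. Ifitm2 (chr7:140955912-140956211, minus strand) held it 46 bases before the start, again marked by capitals.
Ifitm2: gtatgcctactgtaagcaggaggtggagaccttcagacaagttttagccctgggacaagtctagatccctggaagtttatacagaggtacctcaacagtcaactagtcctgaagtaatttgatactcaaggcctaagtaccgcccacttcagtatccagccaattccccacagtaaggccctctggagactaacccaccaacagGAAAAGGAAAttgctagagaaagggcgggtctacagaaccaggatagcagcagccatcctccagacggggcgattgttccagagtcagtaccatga
Ifitm3: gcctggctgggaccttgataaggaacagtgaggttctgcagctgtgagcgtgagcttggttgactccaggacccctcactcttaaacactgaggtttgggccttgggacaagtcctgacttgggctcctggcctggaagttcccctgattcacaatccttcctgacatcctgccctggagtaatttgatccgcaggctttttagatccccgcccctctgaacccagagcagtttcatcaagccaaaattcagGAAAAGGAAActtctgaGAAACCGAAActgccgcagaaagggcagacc

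The PARP members add ADP-ribose to proteins, and Dtx3l is the ubiquitin ligase that partners Parp9. All 4 had negative differences with a median of −0.13. Parp14 was lowest at 33.1, median 59.0 and highest at 72.0 FPKM in Control, against 27.7, 47.7 and 58.0 in P.T.ATBx. The whole P.T.ATBx group was under the median of Control, yet Control 3 and Control 1 were among the 4 lowest libraries. The difference was −0.27 (SE 0.16, p = 0.106, adjusted p = 0.484, limma). Parp12 had the highest level, 70.3 ± 9.23 and 65.4 ± 6.15 FPKM (n = 10 each, SD), and a difference of −0.10 (adjusted p = 0.605, limma). Parp9 had −0.11 and Dtx3l −0.14 (adjusted p = 0.630 and adjusted p = 0.620, limma). The annotated spans of Parp9 and Dtx3l overlap by 558 bases, and how reads there were assigned is not known.

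TRIM members are ubiquitin ligases: Trim25 acts on the RNA sensor Ddx58, Trim21 binds antibody-coated particles in the cytosol, and Trim30a is a mouse gene of the same family. Trim25 varied little, from 17.7 through a median of 20.2 to 24.9 FPKM in Control and from 16.9 through 18.5 to 21.2 in P.T.ATBx. Under the median of Control were 9 P.T.ATBx values, and 3 of them were under all Control values. The difference was −0.15 (SE 0.06, p = 0.0159, adjusted p = 0.241, limma). Trim30a, the most abundant at 32.3 ± 5.95 and 28.8 ± 5.40 FPKM, had −0.16 (adjusted p = 0.574, limma), and Trim21 had −0.16 (adjusted p = 0.400, limma).

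The IFI27 members are small membrane proteins. Ifi27l1 had the lowest unadjusted p of the 39 members. Ifi27l1 was lowest at 60.4, median 73.2 and highest at 103.7 FPKM in Control, against 53.9, 60.2 and 72.3 in P.T.ATBx. P.T.ATBx held the 5 lowest libraries, and Control held the 6 highest. The difference was −0.30 (SE 0.08, p = 0.000864, adjusted p = 0.0649, limma). It was −0.34 without Control 8 (adjusted p = 0.0362, limma) and −0.31 after quantile normalization (adjusted p = 0.0418, limma). It shrank to −0.25 without Control 3, and to −0.22 (adjusted p = 0.164, limma) without the 4 libraries of highest Rpph1 and Rmrp share named below. Over all alternatives the adjusted p ran from 0.0362 to 0.164. Ifi27l2a was lowest at 129, median 189 and highest at 421 FPKM in Control, against 114, 158 and 252 in P.T.ATBx. Control 3 at 421 and Control 1 at 418 stood far above the other Control libraries, of which the highest had 219. The difference was −0.39 (SE 0.21, p = 0.0775, adjusted p = 0.433, limma). It was −0.19 without the 4 libraries of highest Rpph1 and Rmrp share (Control 1 and 3, P.T.ATBx 1 and 4). Control 1 and Control 3 were the highest libraries for Ifi27l1 too, at 89.7 and 103.7 FPKM, and for the adipocyte markers given above. Control 3 was also the highest library in summed fibroblast markers, at 1507 FPKM, and in the epithelial keratin and adhesion markers, at 179 FPKM. Within P.T.ATBx, replicate 7 had both the highest Ifi27l2a, 252 FPKM, and the highest adipocyte sum, 694. The part of adipose or other tissue in the IFI27 values was not tested. The annotated span of Ifi27l1 (chromosome 12, 103434189 to 103440245) lies within that of Ifi27l2a (103433873 to 103443680), so the assignment of some reads is uncertain.

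**Figure D2:**
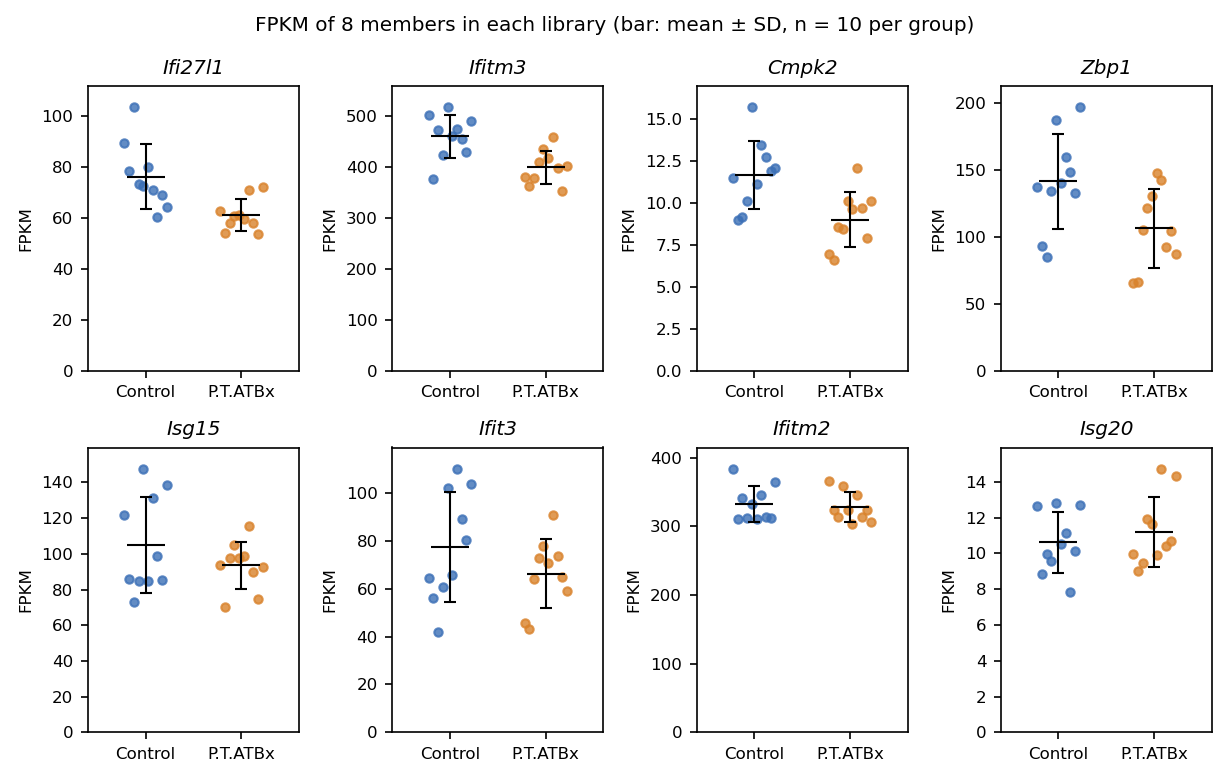
FPKM (y axis, from 0) of 8 members in each Control and P.T.ATBx library (dots, 10 per group), with mean and SD as bars. Ifi27l1, Ifitm3, Cmpk2 and Zbp1 in the top row and Isg15, Ifit3, Ifitm2 and Isg20 in the bottom row all have overlapping groups. For Isg15 and Zbp1, 4 Control libraries lie above all P.T.ATBx libraries, and for Isg20 0 do.

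Cmpk2 and Rsad2 are neighbours on chromosome 12, 12664 bases apart, and work on the same chemistry: Cmpk2 is a mitochondrial nucleotide kinase, and Rsad2 (viperin) turns CTP into a chain terminator. Cmpk2 was lowest at 9.01, median 11.7 and highest at 15.7 FPKM in Control, against 6.58, 9.11 and 12.1 in P.T.ATBx. P.T.ATBx held the 5 lowest libraries, and 9 of its values were under the median of Control. The difference was −0.34 (SE 0.10, p = 0.00220, adjusted p = 0.0980, limma), with adjusted p from 0.0172 to 0.238 over the alternatives. Rsad2 was lowest at 14.4, median 20.3 and highest at 26.6 FPKM in Control, against 13.1, 18.6 and 25.6 in P.T.ATBx, and its difference was −0.11 (SE 0.13, p = 0.424, adjusted p = 0.777, limma), which was −0.05 without P.T.ATBx 2. Both followed each other closely from library to library. Within Control Pearson's r was 0.915 (permutation p = 5e-05, adjusted p = 0.0003 over 12 relations) and Spearman's rho 0.952 (permutation p = 0.00011, adjusted p = 0.00132). Within P.T.ATBx r was 0.964 (permutation p = 3e-05, adjusted p = 0.0003) and rho 0.939 (permutation p = 0.00027, adjusted p = 0.00162). Without the 2 libraries farthest from the Rsad2 median, r was 0.898 and 0.914.

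Other members varied together too: 28 of 39 members lay on the side of most others in 17 or more of 20 libraries. That count takes both groups together and is another measure than r within a group. Whether this pair was closer than other pairs of members was not tested. The start regions of the pair are shown, Rsad2 at chr12:26456403-26456702 (minus strand) and Cmpk2 at chr12:26468965-26469264 (plus strand). Rsad2 held a single match to the core, 120 bases before its start, in capitals. The Cmpk2 window held 0 matches.
Rsad2: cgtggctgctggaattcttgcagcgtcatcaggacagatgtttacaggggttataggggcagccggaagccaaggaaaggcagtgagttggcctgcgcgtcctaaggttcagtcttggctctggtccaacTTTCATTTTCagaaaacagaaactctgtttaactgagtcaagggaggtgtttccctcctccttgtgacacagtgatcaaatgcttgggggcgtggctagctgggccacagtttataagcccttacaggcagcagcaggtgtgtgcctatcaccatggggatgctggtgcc
Cmpk2: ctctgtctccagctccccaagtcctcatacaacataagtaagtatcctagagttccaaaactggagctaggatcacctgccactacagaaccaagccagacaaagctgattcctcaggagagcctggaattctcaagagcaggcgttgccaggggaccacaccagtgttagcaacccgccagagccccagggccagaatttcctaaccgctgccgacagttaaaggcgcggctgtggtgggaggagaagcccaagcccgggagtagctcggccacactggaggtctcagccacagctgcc

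Among the remaining members, Zbp1, a sensor of Z-form nucleic acid that can start cell death, had the largest difference. It was lowest at 85.05, median 138 and highest at 196.7 FPKM in Control, against 65.2, 105 and 147 in P.T.ATBx. Control 2 and Control 3 lay among the lower P.T.ATBx libraries, and 4 Control libraries lay above all of P.T.ATBx. The difference was −0.42 (SE 0.17, p = 0.0227, adjusted p = 0.275, limma). Bst2 (tetherin), which holds budding virus at the cell surface and also marks plasmacytoid dendritic cells, was the second most abundant member. It was lowest at 275, median 375 and highest at 438 FPKM in Control, against 229, 323 and 376 in P.T.ATBx, so 9 P.T.ATBx values were under the median of Control. The difference was −0.22 (SE 0.09, p = 0.0226, adjusted p = 0.275, limma). Summed FPKM of the plasmacytoid dendritic cell markers ranged from 23.7 to 33.9 for Control libraries and from 27.4 to 32.9 for P.T.ATBx libraries. Most of this sum was Tcf4, with group means of 23.9 (Control) and 26.3 (P.T.ATBx) and a difference of 0.14 (adjusted p = 0.232, limma). Klk1, Spib and Cox6a2 had differences of −0.29, −0.10 and −0.01 and did not pass, and Siglech and Ccr9 had means under 0.5 FPKM. The sum is therefore mainly a reading of Tcf4, and the part of these cells in the Bst2 values was not tested.

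Eif2ak2, the kinase PKR that halts translation on sensing double-stranded RNA, had −0.08 (adjusted p = 0.705, limma). Isg20, an RNA exonuclease, had the only positive value, 0.07 (SE 0.09, adjusted p = 0.798, limma), with means of 10.6 ± 1.70 FPKM in Control against 11.2 ± 1.96 in P.T.ATBx (n = 10 each, SD). Sp100, a nuclear body protein, had −0.03 (adjusted p = 0.905, limma), and its direction changed to 0.0041 without Control 5 and to 0.0085 without P.T.ATBx 2. Samd9l, a translation inhibitor, had −0.04. Ifi44 had −0.23. The differences of Xaf1, which binds the apoptosis inhibitor XIAP (−0.17), and Rtp4 (−0.16) lay near the median of the members. Those of Ifi35 and the secreted glycoprotein Lgals3bp were both −0.10. Adjusted p in these 5 genes ran from 0.431 to 0.643 (limma).

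The members varied together between the libraries of both groups. In each library, members above their own 20-library median were counted. Control 5 had 39 of 39 above, Control 7 had 38, Control 10 had 37 and Control 8 had 35. Control 2 had 1 and Control 3 had 5. In P.T.ATBx, replicate 7 had 38, replicate 5 had 33 and replicate 6 had 30, while replicates 1 and 2 had 1 each and replicate 9 had 3. Both groups therefore held libraries with nearly all members high and libraries with nearly all members low. At least 30 members were above in 5 libraries of Control and 3 of P.T.ATBx, and at most 8 in 2 of Control and 5 of P.T.ATBx. The median count was 28 for Control against 10.5 for P.T.ATBx, given as a description since the members were chosen with earlier results known.

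**Figure D3:**
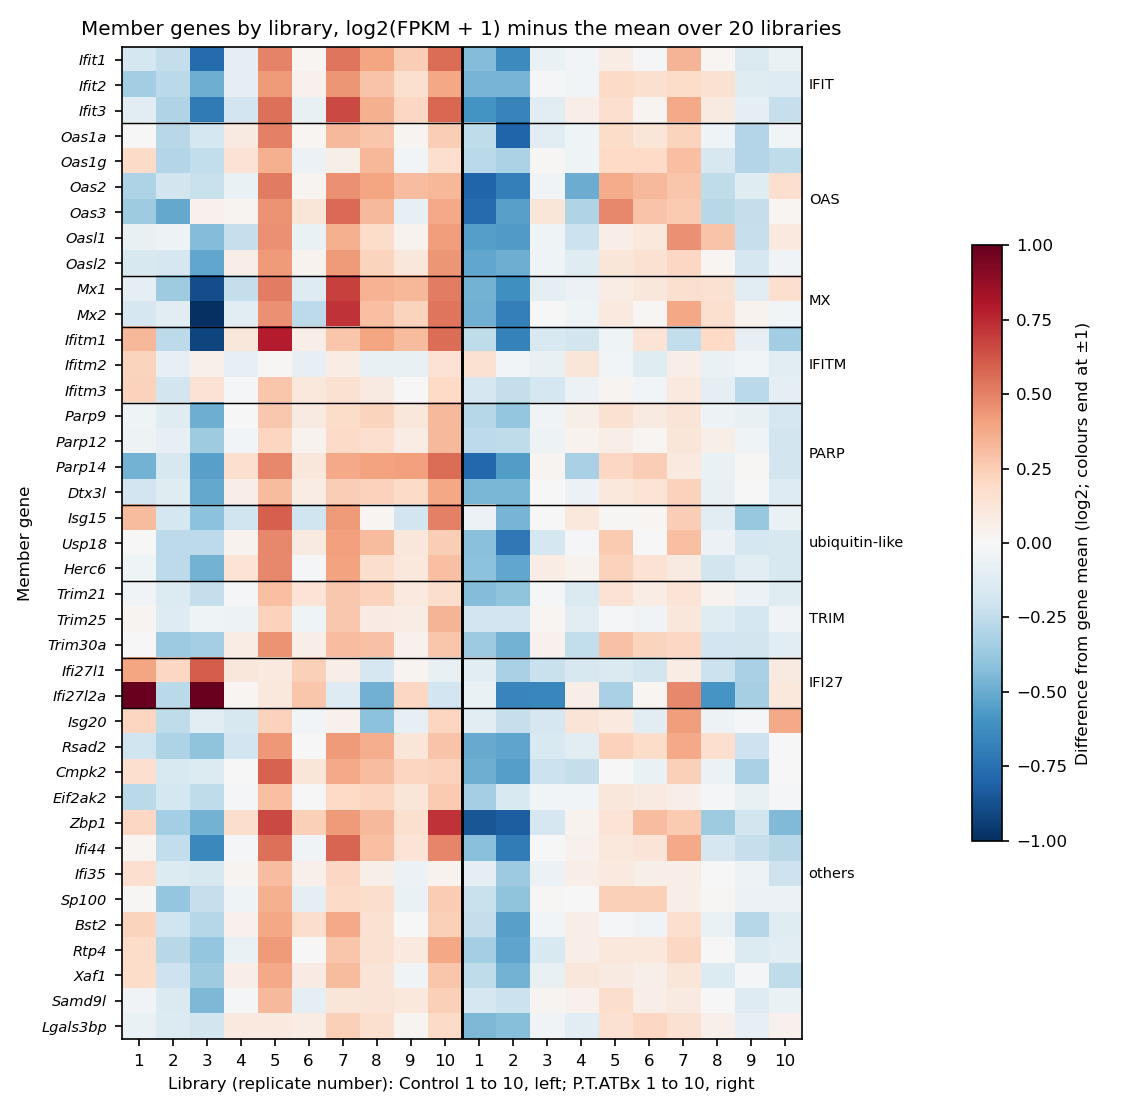
Colour shows log2(FPKM + 1) of each member (rows, by subfamily) minus its mean over all 20 libraries (columns; Control left of the line, P.T.ATBx right), red for higher and blue for lower. Control 5, 7 and 10 are red and P.T.ATBx 1 and 2 blue in nearly every row, while the rows of Ifitm2 and the IFI27 genes follow other patterns.

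Most members shared this order. In 28 of 39 members, the library lay on the same side of the median as most other members in 17 or more of 20 libraries. Ifit1, Oas1a, Usp18, Parp9 and Rsad2 did so in 19. The exceptions, at 13 or fewer, were Ifitm2 (9), Ifi27l1 (11), Ifi27l2a (11) and Isg20 (13). The subfamilies did not divide alike in every library. Control 1 had 0 of 3 IFIT, 0 of 2 MX and 0 of 4 PARP members above their medians, but 3 of 3 IFITM, 2 of 2 IFI27 and 9 of the 13 further members. P.T.ATBx 8 had 3 of 3 IFIT and 2 of 2 MX members above but 0 of 3 ubiquitin-like and 1 of 6 OAS members.

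The spread behind this was wide. Highest and lowest library differed by 1.27-fold for Ifitm2 and 3.80-fold for Mx2, with a median of 1.96-fold over members. The SD within groups had a median of 0.26 over members on the log2 scale, against 0.12 for the 9193 tested genes in the same range of levels. It was larger in Control than in P.T.ATBx for 28 of 39 members, where 59.8% of all tested genes had the larger SD in Control. Some of the libraries lowest in the members were also lowest in summed leukocyte markers. Most of this sum was Cd52, with group means of 331 (Control) and 322 (P.T.ATBx) FPKM. The next marker, Coro1a, had 87.0 and 80.2, so the sum is mainly a reading of Cd52. Summed FPKM was 399 in Control 2, 424 in Control 3 and 360 in P.T.ATBx 2, the 3 lowest of all libraries. P.T.ATBx 1 and P.T.ATBx 9, with 1 and 3 members above, had 520 and 527, near the P.T.ATBx median of 535. Control 5 and P.T.ATBx 5, with many members above, had 693 and 691. Control 1, however, had 694 with 17 members above, and Control 7 had 543 with 38. The part of leukocyte content in the members' values was not tested.

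**Figure D4:**
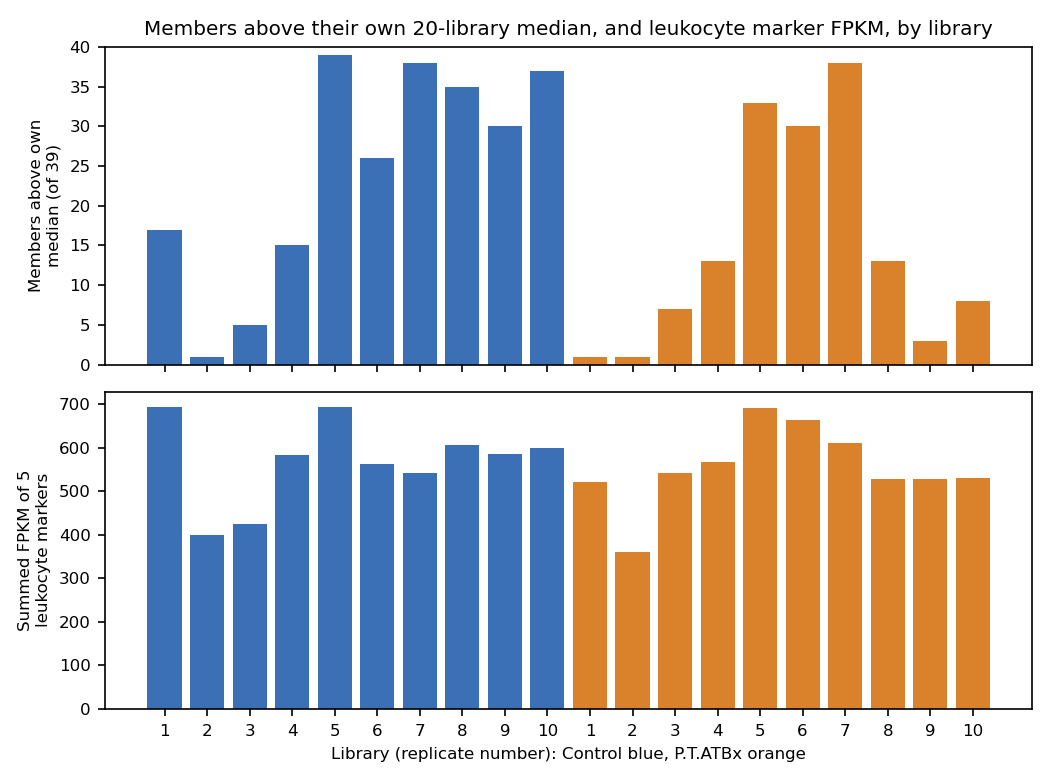
Top, number of the 39 members above their own median over 20 libraries, by library; bottom, summed FPKM of 5 leukocyte markers in the same libraries (bars from 0; Control blue, P.T.ATBx orange). Counts run from 1 to 39 in Control and from 1 to 38 in P.T.ATBx, and the 3 lowest leukocyte sums belong to Control 2, Control 3 and P.T.ATBx 2. By group means, most of the leukocyte sum is Cd52.

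Isg15 was compared with Usp18, Irf7, Ifng and Ptprc across the libraries of each group, and p-values were adjusted over 12 relations. With Usp18, r was 0.752 in Control (permutation p = 0.0152, adjusted p = 0.0305) and 0.760 in P.T.ATBx (permutation p = 0.0116, adjusted p = 0.0305). The matching rho values were 0.721 (permutation p = 0.0239, adjusted p = 0.0471) and 0.758 (permutation p = 0.0149, adjusted p = 0.0471). Irf7 is the interferon-induced factor that amplifies type I interferon. With it, r was 0.810 in Control (permutation p = 0.00338, adjusted p = 0.0135) and 0.693 in P.T.ATBx (permutation p = 0.0244, adjusted p = 0.0418), and rho was 0.685 (permutation p = 0.0356, adjusted p = 0.0534) and 0.624 (permutation p = 0.0610, adjusted p = 0.0732). Without the 2 libraries farthest from the Isg15 median, r was 0.644 and 0.642 for Usp18 and 0.571 and 0.422 for Irf7. Over these 8 libraries, with a narrower range of Isg15, none of the 4 values passed (permutation p from 0.0789 to 0.298).

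Ifng is made by lymphocytes and is no member. Its r with Isg15 was 0.721 in Control (permutation p = 0.0151, adjusted p = 0.0305) and 0.423 in P.T.ATBx (permutation p = 0.224, adjusted p = 0.238), and rho was 0.733 (permutation p = 0.0201, adjusted p = 0.0471) and 0.455 (permutation p = 0.192, adjusted p = 0.210). Without the 2 farthest libraries r was 0.587 in Control (permutation p = 0.0942) and 0.274 in P.T.ATBx (permutation p = 0.522). Ptprc encodes the pan-leukocyte antigen CD45. Its r was 0.411 in Control (permutation p = 0.238, adjusted p = 0.238) and 0.625 in P.T.ATBx (permutation p = 0.0536, adjusted p = 0.0804), and rho was 0.261 (permutation p = 0.470, adjusted p = 0.470) and 0.709 (permutation p = 0.0275, adjusted p = 0.0471). Without the 2 farthest libraries r was 0.143 and 0.280 for Ptprc. Whether r differed between the groups was not tested.

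Upstream of the members, the type I interferon genes were listed at low values or at 0. The list of 21 ligand genes also holds the interferon lambda genes Ifnl2 and Ifnl3 and the interferon gamma gene Ifng. Of these 21 genes, 13 were listed at 0 in all 20 libraries, Ifnl2 and Ifnl3 among them. Below the filter, a mean of 0.5 FPKM, lay 20 of the 21. An exact 0 in this table can be a failed estimate: Ptpn11, a phosphatase gene that most cells use, was listed at 0 in 10 libraries of Control and 9 of P.T.ATBx. The zeros therefore do not show that the ligands were absent. Ifnb1 was listed at 0 in 3 libraries of Control and 1 of P.T.ATBx, with at most 0.298 FPKM in the former and 0.593 in the latter. Ifng, the type II ligand, was the only tested one, at 0.765 to 5.21 FPKM in Control against 0.700 to 2.94 in P.T.ATBx (difference −0.42, SE 0.19, adjusted p = 0.349, limma). Of the 10 receptor and transducer genes 0 passed. The receptor subunits Ifnar1 (0.03) and Ifnar2 (−0.01) had values near 0, as did Jak1 and Tyk2, whereas Stat2 was at −0.37 (31.8 ± 8.67 and 23.9 ± 4.43 FPKM, adjusted p = 0.256, limma) and Irf9 at −0.21 (27.1 ± 4.09 and 23.5 ± 4.33, adjusted p = 0.385; SD, n = 10 each).

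Among 7 tested interferon regulatory factors 7 were negative and 0 passed. Irf4, a factor of lymphocytes and dendritic cells, had the smallest p at −0.32 (adjusted p = 0.121, limma), and Irf7 had −0.13 (adjusted p = 0.687, limma). Of 12 nucleic acid sensors and adaptors, 8 were negative, 4 positive and 0 passed, with a median of −0.02. The RNA sensors Ddx58 and Ifih1 were both at −0.01, the DNA sensor gene Mb21d1 (cGAS) at −0.17 (adjusted p = 0.112, limma) and the endosomal sensor Tlr7 at 0.24 (adjusted p = 0.131, limma). Of 22 tested partners and relatives of the members 17 were negative and 0 passed, with a median of −0.09. Parp11 had the smallest p (−0.17, adjusted p = 0.197, limma), followed by Zc3hav1, which encodes the antiviral protein ZAP (−0.14, adjusted p = 0.353, limma). Negative regulators had 3 negative and 4 positive values with 0 passed, among them Socs3 at −0.20 and the phosphatase Ptpn2 at 0.11.

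A list of 12 genes chiefly known as interferon gamma responses had 12 negative values with a median of −0.37, and 1 of them, the tryptophan-degrading enzyme Ido1, fell (−1.16, SE 0.25, adjusted p = 0.0310, limma). Socs1 had −0.37 (adjusted p = 0.116, limma), and the GTPases Iigp1 and Igtp had −0.54 and −0.53. The medians of this list and of the 39 members stand side by side here, and whether they differ was not tested. T cell markers summed to 15.9 to 42.0 FPKM in Control and 11.1 to 31.3 in P.T.ATBx (5 of 6 genes matched), and macrophage and monocyte markers to 651 to 976 and 616 to 983. The 5 fibroblast markers summed to 1069 to 1507 FPKM in Control against 889 to 1108 in P.T.ATBx. Of these 5 genes, Dcn (decorin) fell by 0.31 (adjusted p = 0.00125, limma), and Col1a1, Col1a2, Lum and Pdgfra did not pass (adjusted p from 0.381 to 0.932, limma). Neutrophil markers summed to 9.85 to 85.2 against 8.91 to 25.4. The part of all 4 lists in the interferon values was not tested.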

How the data were processed

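RNA of MC38 tumours was sequenced in 20 stranded total RNA libraries, 10 per group, per the labels' protocols. The authors deposited 1 table of FPKM values per gene and library. The build was mm10, per the submitters' processing notes. Aligner, counting tool and annotation: not given in the sources used here. FPKM is no count, so total reads are unknown and only relative depth was read from the values.

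Values were analysed as log2(FPKM + 1) after a filter at a mean FPKM of 0.5, which all 39 members passed, leaving 12788 genes. Groups were compared by limma 3.58.1 (R 4.3.3) without covariates, with trended and robust moderation, two-sided, and Benjamini-Hochberg adjustment over all tested genes and a threshold of 0.05. The fit was run on simulated data in which the values of each gene were shuffled over libraries on their own. The shuffling removes joint variation between genes, so that run cannot speak to the members as a set. The log2 scale with a pseudocount understates changes of low genes. Relations used permutation tests with 100000 resamples, adjusted over 12 relations. No member lay under the filter, so the permutation test set out for such members was not needed. The members and lists were chosen with earlier results of these data known. Every member is reported; in each subfamily the most abundant member and the one with the smallest p have full values, as do preset genes, and up to 4 genes of smallest p per pathway list. Ifnar1, Ifnar2, Jak1, Tyk2, Ddx58, Ifih1, Uba7, Ube2l6, Ptpn11, the fibroblast markers and Krt20 were named besides, after their values were seen. Replicate numbers were not used as pairs in the main fit, and whether they pair the libraries could not be settled. Gene spans and promoters came from RefSeq (GRCm38.p6) and transcripts from GENCODE M21. Alternatives covered pseudocount, filter, scaling, weights, moderation, block and left-out libraries. Values of some listed genes are not reported here.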

Additional observations from a re-analysis of the deposited data

Results flagged for a closer look

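Among 78 sets of 10 values, 1 for each member and group, a single one held a library far from the others. Oas1a in P.T.ATBx 2 was at 10.9 FPKM, and its gap to the next library made up 0.496 of the group's whole range on the log2 scale, above Dixon's critical value for 10 values. Chance flags about 1 in 20 such groups. P.T.ATBx 2 was also the lowest P.T.ATBx library for 26 of the 39 members and the lowest of all 20 libraries in summed leukocyte markers. The cause was not tested.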

How the results depend on the processing

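Scaling, filter and pseudocount alternatives kept the direction of all members but Ifitm2, at 0.0093 with quantile normalization. Members called lower were 0 of 39 by limma, with 6 at an unadjusted p under 0.05, but 1 with quantile normalization (Ifi27l1, adjusted p = 0.0418, limma). Over all genes, 29 were called lower and 20 higher on the TPM scale, and 152 and 154 with arrayWeights. Without the 4 libraries of highest Rpph1 and Rmrp share, an alternative chosen after seeing the data, 31 genes were called higher. Of 390 member values under 10 alternatives, the replicate block included, 386 kept direction and call; so did 775 of 780 when each library was left out in turn.

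Leaving out 1 library, 31 genes were called lower and 38 higher without P.T.ATBx 4, the fewest, and 89 and 104 without Control 1, the most. Members called lower ran from 0 to 1, namely Ifitm3 without Control 2 and Ifi27l1 without Control 8. The members' median was -0.21 without Control 3 at one end and -0.12 without P.T.ATBx 2 at the other. Ifitm2 ran from -0.038 to 0.0033 and Sp100 from -0.079 to 0.0085. Leaving out 1 library also moved the differences of Ifit2, Oas3, Oasl1, Parp9, Eif2ak2, Ifi35, Samd9l and Lgals3bp, none of them called, by over 1.5 times: their values nearest 0 were -0.062 (without P.T.ATBx 1), -0.12 (P.T.ATBx 1), -0.062 (P.T.ATBx 2), -0.076 (P.T.ATBx 2), -0.043 (P.T.ATBx 1), -0.063 (P.T.ATBx 2), -0.0015 (Control 5) and -0.054 (P.T.ATBx 1). Ifit2, Parp9 and Samd9l were at -0.17, -0.17 and -0.087 without Control 3. Isg15 with Ptprc in P.T.ATBx had r of 0.713 with quantile normalization and 0.724 on the TPM scale (adjusted p = 0.032 and 0.0246, permutation). Isg15 with Ifng in Control lost its call without the 4 libraries (r 0.660, adjusted p = 0.0648, permutation).

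Replicate numbers are shared between the groups, and the main fit did not treat them as pairs. Of 10 same-numbered pairs, 5 had a correlation of deviations above 0.1, and the values ran from -0.315 to 0.393. For 3 Control libraries, the P.T.ATBx library of best correlation had the same number. Such a check cannot settle whether the numbers pair the libraries. With the replicate number as a block, 2 members were called lower, Ifitm3 (adjusted p = 0.042, limma) and Cmpk2 (adjusted p = 0.0172, limma), and 59 genes were called lower and 65 higher over the table. The causes of these shifts were not tested. Depth is known only in relative terms, so no counting interval can be given, and genes near 0, such as Ifnb1, cannot be compared.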
